A study of Homo sapiens with 12 samples.

Results

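The genes described here are the SRC family kinases SRC, YES1, FYN, LYN, FRK and FGR together with CSK, the kinase known as the family's inhibitor. They were chosen by name, matched by symbol to Ensembl identifiers, and are 7 of the 62703 entries of a deposited count table. All 7 passed the filter on low counts, as did 17677 genes in all. The study compared MCF10AT cells, established from the human breast epithelial line MCF10A by transformation with RAS, carrying the long and the intermediate human prolactin receptor (hPRLrL/hPRLrI). In 2 groups the intermediate receptor was intact and in the other 2 its I-tail was deleted (called intact and deleted cells here), and the stated interest was the part this tail plays in breast cancer. All groups were kept for 24 h without serum in medium with 0.1% bovine serum albumin; 1 group of each receptor pair stayed untreated and the other was given prolactin (PRL), 250 ng/ml, for 2 h. PolyA RNA was sequenced from 3 libraries per group, named as biological replicates in the labels, and the promoter that drives the receptors and whether each line is a clone are stated in no source used here. The libraries held 36120808 to 57324865 counts.

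SRC family kinases are tyrosine kinases, most of them anchored on the inner face of the cell membrane, where they relay signals from integrins, growth factor receptors and cytokine receptors. Their activity is set by a tyrosine near the C-terminus: when CSK phosphorylates it, the tail folds back onto the kinase's own SH2 domain and the enzyme is shut off, and phosphatases that remove the phosphate release it. The prolactin receptor has no kinase of its own and signals through JAK2 and through SRC family kinases. In breast epithelial cells SRC is known for its part in focal adhesion turnover, migration and invasion.

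The last 60 bases of the coding sequences are shown because they hold the codon through which CSK acts on SRC and its close relatives. They were read from the GENCODE 29 gene models on the GRCh38 sequence, run 5′ to 3′ on the coding strand and end in the stop codon. Capitals mark the last tyrosine codon in frame.
SRC: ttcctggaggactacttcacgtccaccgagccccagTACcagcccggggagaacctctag
YES1: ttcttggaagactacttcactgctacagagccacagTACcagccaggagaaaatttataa
FYN: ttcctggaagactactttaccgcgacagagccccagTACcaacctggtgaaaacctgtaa
FGR: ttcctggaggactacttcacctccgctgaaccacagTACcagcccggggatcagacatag
FRK: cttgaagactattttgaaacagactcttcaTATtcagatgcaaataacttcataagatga
CSK: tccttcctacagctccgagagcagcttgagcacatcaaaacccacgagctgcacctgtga
In SRC, YES1, FYN and FGR this codon stood 7 codons from the last amino acid, itself counted, and in FRK 9. Counted from the start codon it was codon 530 of 536 in SRC, 537 of 543 in YES1, 531 of 537 in FYN, 523 of 529 in FGR and 497 of 505 in FRK. LYN had it at codon 508 of 512. CSK had no tyrosine codon in the window; its last one was codon 416 of 450. The table counts messages per gene, so neither phosphorylation of these tyrosines nor protein was measured.

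In GRCh38, SRC (ENSG00000197122) lies on the forward strand at chr20:37344685-37406050. YES1 (ENSG00000176105) lies on the reverse strand at chr18:721588-812546. FYN (ENSG00000010810, chr6:111660332-111873452) and FRK (ENSG00000111816, chr6:115931149-116060758) are both on the reverse strand of chromosome 6. LYN (ENSG00000254087) lies forward at chr8:55879813-56014168, FGR (ENSG00000000938) in reverse at chr1:27612064-27635277 and CSK (ENSG00000103653) forward at chr15:74782057-74803198. The genes that overlap them, and the processed copy YES1P1, held at most 6 counts in any library. Promoter windows of 300 bases were found in the RefSeq table for 5 of the 7 genes, namely YES1, FYN, FRK, FGR and CSK, 9 windows in all. The STAT5 motif TTCNNNGAA, read on both strands, was in 0 of the 9 windows and in 7.66% of 35116 such windows of all genes. The AP-1 motif TGANTCA was likewise in 0 of 9, against 7.71% of all windows. These counts say only that the letters are not in these windows.

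The treatment and the receptor were checked first. CISH, a feedback inhibitor that prolactin induces through STAT5, rose 3.84 ± 0.18 (log2 fold change ± SE) with PRL averaged over both receptor pairs (edgeR adjusted p = 1.45e-07). It lay at 3.18 to 5.27 CPM (the count set against the library's total) in the untreated libraries and 54.3 to 70.7 in the treated ones. PRLR stood at 3100 to 3960 CPM in all libraries, a gene count that cannot tell the 2 receptor forms or the deletion apart. The epithelial label was checked on 10 markers, of which all were tested and present in every library. They summed to 2670 to 3170 CPM in the first library of each group and to 7010 to 12500 in libraries 2 and 3. Most of that sum was KRT17 (2190 CPM on average), KRT5 (1580), KRT8 (1340) and LAMB3 (1070). KRT18 had 354, SFN 268, KRT14 40.9, CDH1 32.9, TP63 16.7 and EPCAM 3.06 CPM on average. Of 12 leukocyte markers, checked because FGR and LYN are best known from blood cells, 4 were tested, CD3D, MS4A1 and TYROBP were at 0 throughout and PTPRC was at 0 in 11 libraries. Their sum of 22.4 to 48.8 CPM was nearly all CSF1R (34.6 CPM on average). Fibroblast markers summed to 424 to 618 CPM, mostly DCN (319 CPM) and COL1A1 (147 CPM), and endothelial markers to 1.22 to 3.3 CPM.

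SRC was by far the most abundant message of the family in these cells, and CSK came second among the 7. CPM values were scaled by TMM, and to set genes side by side they were divided by the kilobases of annotated exon. On that scale SRC had 62.5 ± 20.6 (mean ± SD over 12 libraries) and CSK 28.9 ± 8.97 CPM per kb, and SRC was above CSK in 12 of 12 libraries. The broadly expressed kinases YES1, FYN and LYN followed at 2.27 ± 0.521, 2.08 ± 0.297 and 1.79 ± 0.335 CPM per kb. YES1 was above FYN in 9 of 12 libraries and FYN above LYN in 11, and these neighbours lie within each other's spread. FGR, a kinase of myeloid cells, had 0.195 ± 0.121 and FRK, an epithelial relative with growth-restraining activity, 0.0615 ± 0.0337 CPM per kb, FGR being above FRK in 9 of 12. By the longest transcript alone FYN (4.26 ± 0.607) stood above YES1 (2.5 ± 0.573), with the other ranks as before. SRC made up 89.7% of the 6 kinases' summed level per kb on average, from 81.8% to 95.8% over the libraries. Further members known from lymphoid cells were scarcely counted: LCK had 0 counts in 12 libraries, which allows up to 0.0523 to 0.0831 CPM (3 counts, counting error only), and BLK had 0 in 11. The distant epithelial relatives PTK6 and SRMS reached 15.4 and 24.2 CPM, and MATK, the other CSK family kinase, 1.79 CPM.

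**Figure D1:**
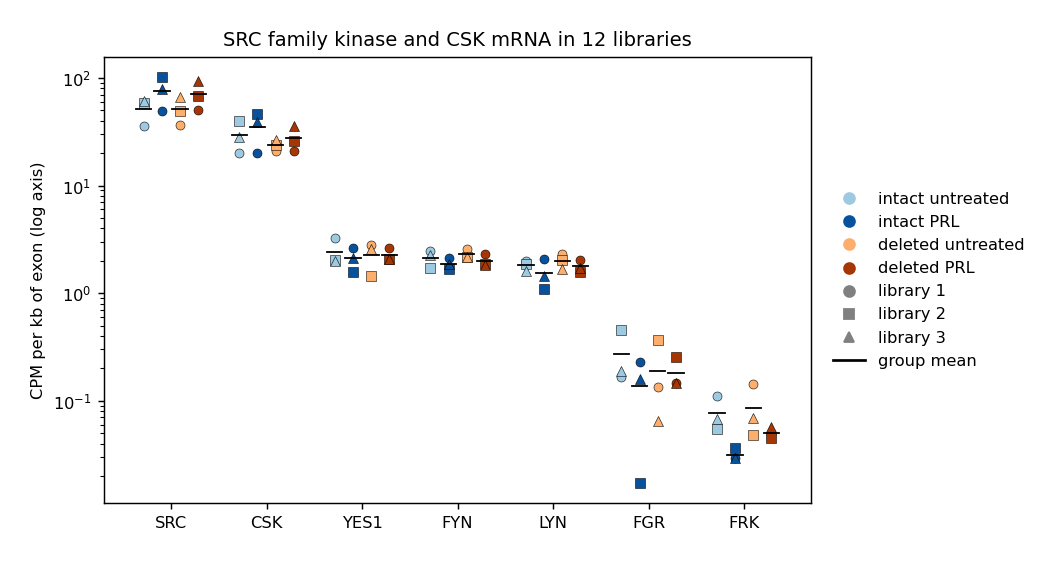
CPM per kb of exon (log axis) of the 7 genes in 12 libraries; points are libraries, colour gives the group, shape the library number and the bar the group mean. SRC lies above CSK in every library, YES1, FYN and LYN lie close together, and FRK and FGR are lowest.

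SRC, the family's namesake, had 231, 376 and 393 CPM in the untreated intact cells (libraries 1, 2 and 3; mean 333 ± 88.7, SD, n = 3). The intact cells given PRL had 321, 654 and 507 CPM (494 ± 167). The deleted cells had 239, 321 and 433 CPM untreated (331 ± 97.4) and 326, 437 and 610 CPM with PRL (458 ± 144). The first library was the lowest of each group, and treated and untreated groups overlapped in both receptor pairs.

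CSK had 92.4, 181 and 129 CPM in untreated intact cells (134 ± 44.3) and 92.4, 210 and 179 CPM with PRL (160 ± 60.8). In deleted cells it had 95.1, 108 and 120 CPM untreated (108 ± 12.5) and 94.8, 118 and 165 CPM with PRL (126 ± 35.7). All 4 groups overlapped, and the first libraries lay within 92.4 to 95.1 CPM whatever the group. Set against the other 6 kinases, CSK per kb was 50 ± 10.1% of their summed level in untreated intact cells and 41.9 ± 5.69% with PRL. In deleted cells it was 41.5 ± 5.34% untreated and 35.8 ± 0.454% with PRL, so the share ran from 35.3% to 61.5% over the libraries. With CPM not divided by length the mean share over 12 libraries was 30% in place of 42.3%.

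YES1, the closest relative of SRC, had 16.5, 10.4 and 10.2 CPM in untreated intact, 13.4, 8.04 and 10.8 in treated intact, 14.4, 7.41 and 13.1 in untreated deleted and 13.5, 10.6 and 10.7 in treated deleted cells. FYN, which acts at adhesions and in T cell signalling, had 18.2, 12.6 and 16.8 CPM, 15.7, 12.4 and 13.7, 19.1, 16.1 and 16, and 17.2, 13.8 and 13.5 CPM in the same order of groups. LYN, best known from B cells but also present in epithelium, had 12.3, 11.6 and 10 CPM, 13, 6.72 and 8.95, 14.3, 12.5 and 10.4, and 12.5, 9.63 and 10.7 CPM. The groups compared overlapped for each of these 3 genes, and the first library was the highest of every group, the reverse of SRC and CSK.

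FRK had 1.46, 0.717 and 0.903 CPM in untreated intact cells and 0.389, 0.478 and 0.39 CPM with PRL. In deleted cells it had 1.89, 0.634 and 0.908 CPM untreated and 0.645, 0.6 and 0.755 CPM with PRL. These values rest on 16 to 82 counts per library; the intact groups did not overlap and the deleted ones did. FGR had 0.58, 1.57 and 0.66 CPM in untreated intact and 0.799, 0.0598 and 0.561 CPM in treated intact cells. In deleted cells it had 0.462, 1.29 and 0.227 CPM untreated and 0.511, 0.886 and 0.511 CPM with PRL. FGR had the widest spread of the 7, from 2 counts in the second treated intact library to 61 in the second untreated deleted one.

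Whether PRL moved these messages was asked in each receptor pair and as an average over both, with edgeR's quasi-likelihood test and Benjamini-Hochberg adjustment over all tested genes, a gene being called under 0.05. SRC had the highest positive estimate of the 7 genes and FRK the lowest negative one, and neither was called. For the averaged PRL effect 21 of the 17677 genes (0.119%) were called, 20 of them higher with PRL, and 0 of the 7 kinases. In each receptor pair alone 3 genes (0.017%) were called, again none of the 7; an unadjusted p under 0.05 was reached by FRK in intact cells, against 451 genes (2.55%), and by none of the 7 in deleted cells, against 316 genes (1.79%). For the averaged PRL effect 2 of the 7, SRC and FRK, had an unadjusted p under 0.05, against 673 genes (3.81%). DESeq2 and limma-voom, which called 0.515% and 0.668% of all genes, also called 0 of the 7. The median log2 fold change was -0.19 over the 7 kinases, with 2 of 7 above 0, and -0.02 over all tested genes.

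SRC was 1.43-fold higher with PRL on average (log2 fold change 0.52 ± 0.23, 95% interval 0.03 to 1, edgeR adjusted p = 0.98). The estimates were 0.57 ± 0.32 in intact and 0.47 ± 0.32 in deleted cells (edgeR adjusted p = 1 in each). Sample titles are numbered 1 to 12, and each run of 4 consecutive numbers holds 1 library of each group, in the order in which the libraries are given above. The labels do not say that such a run shares a culture or a day. Within runs SRC was higher with PRL in 6 of 6 comparisons, by 1.29 to 1.74 times, as were 8.37% of all tested genes. With the runs as a block the averaged SRC effect was 0.51 ± 0.10 (interval 0.29 to 0.74) and passed the threshold (edgeR adjusted p = 0.0232), as did 198 genes or 1.12%. In that blocked fit the SRC call was lost in 7 of 12 fits that left out 1 library, with adjusted p from 0.0134 to 0.161 over the 12. The libraries whose omission ended it were untreated intact libraries 1, 2 and 3 (adjusted p 0.0958, 0.0782 and 0.143), untreated deleted libraries 2 and 3 (0.0863 and 0.0514) and treated deleted libraries 1 and 3 (0.0973 and 0.161).

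CSK, the family's inhibitor, had a PRL estimate of 0.24 ± 0.22 on average (interval -0.23 to 0.72, edgeR adjusted p = 0.98). Within title runs the ratio of treated to untreated CSK was 0.998 to 1.38. In the first run the levels were equal to 3 digits in intact cells (92.4 CPM in both) and 95.1 and 94.8 CPM in deleted cells, and in the other 2 runs CSK was higher with PRL in both receptor pairs.

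FRK was 2.05-fold lower with PRL on average (log2 fold change -1.03 ± 0.32, interval -1.72 to -0.35, edgeR adjusted p = 0.672). In intact cells the estimate was -1.29 ± 0.46 and in deleted cells -0.77 ± 0.44, with edgeR adjusted p = 1 in each. The intact groups of FRK did not overlap, which held for 971 of all tested genes (5.49%); the deleted groups did, and 8.26% of genes were without overlap there. Within runs it was lower with PRL in 6 of 6 comparisons, as were 6.05% of all tested genes, with ratios to the untreated library from 0.266 to 0.947. The first run gave 0.266 and 0.341, and without that run the averaged estimate was -0.54 ± 0.42 (edgeR adjusted p = 0.721). With the runs as a block FRK was not called (-0.95 ± 0.30, edgeR adjusted p = 0.178).

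FYN had an estimate of -0.19 ± 0.14 on average (interval -0.49 to 0.10). It was lower with PRL in 6 of 6 comparisons within runs, as were 6.05% of all tested genes, by ratios of 0.821 to 0.984. LYN had -0.21 ± 0.17 (interval -0.57 to 0.16) and was higher in 2 of 6, and YES1 had -0.10 ± 0.20 (interval -0.54 to 0.34) and was higher in 2 of 6. FGR had -0.50 ± 0.53 (interval -1.65 to 0.64) and was higher in 3 of 6. Its estimate was -0.31 with the block and 0.07 with limma-voom, and ran from -0.80 to -0.03 when 1 library was left out. The unblocked intervals of these 4 genes include 0, with edgeR adjusted p of 0.98 to 0.981. With the block the FYN interval was -0.38 to -0.01 (edgeR adjusted p = 0.355).

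**Figure D2:**
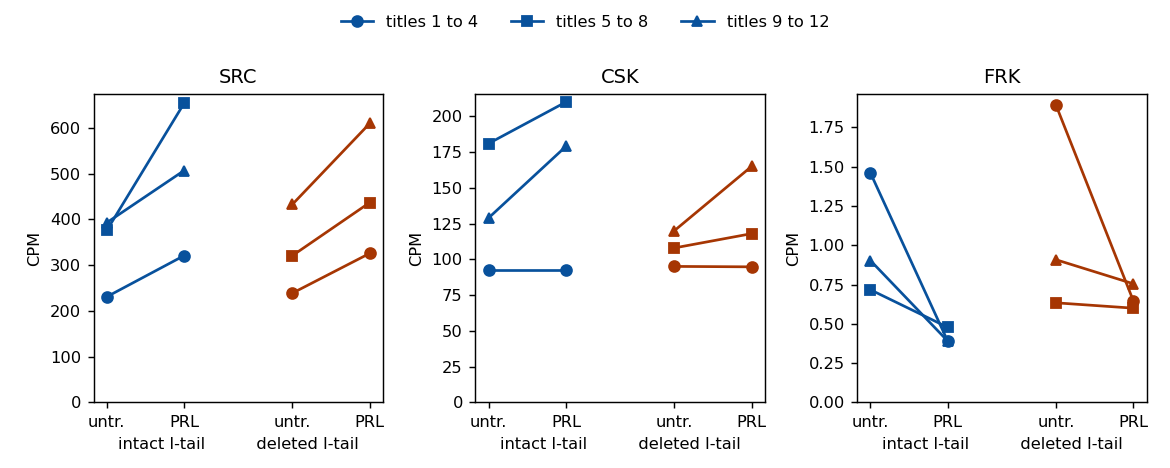
CPM of SRC, CSK and FRK in untreated and PRL-treated cells with intact (blue) or deleted (red) I-tail; lines join the 2 libraries of a receptor pair within 1 run of title numbers, and each axis starts at 0. Every SRC line goes up and every FRK line goes down, and the first run (titles 1 to 4) has the lowest SRC and CSK and the steepest FRK lines.

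Removal of the I-tail gave no called change in any of the 7 genes. For the deletion averaged over both treatments 1 of 17677 genes (0.00566%) was called, and 0 of the 7 kinases; 403 genes (2.28%) and none of the 7 had an unadjusted p under 0.05, and DESeq2 (0.0566% of all genes called) and limma-voom (0.0509%) called none of the 7. SRC differed by -0.06 ± 0.22 (interval -0.54 to 0.42), and by -0.06 ± 0.10 (-0.28 to 0.16) with title runs as a block. CSK differed by -0.33 ± 0.22 (interval -0.81 to 0.14, edgeR adjusted p = 0.991). With the block the CSK interval was -0.56 to -0.01 (edgeR adjusted p = 0.354), leaving out 1 library gave -0.48 to -0.21, and with an offset for GC content and length it was -0.09. Its mean was 117 CPM in deleted and 147 CPM in intact libraries. YES1 (0.01 ± 0.20), FYN (0.10 ± 0.14) and LYN (0.17 ± 0.17) had estimates near 0, FRK had 0.41 ± 0.32 and FGR -0.05 ± 0.53, with edgeR adjusted p of 0.991 to 0.996. In treated cells alone FRK was above every intact library in all 3 deleted libraries (0.67 ± 0.46, edgeR adjusted p = 1), and groups did not overlap for 875 genes (4.95%) in that comparison.

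Whether the PRL effect differed between intact and deleted cells was tested as the interaction. It called 0 of 17677 genes (0%), with 127 (0.718%) at an unadjusted p under 0.05, none of them among the 7, and DESeq2 and limma-voom called 0 genes. The interaction was -0.10 ± 0.45 for SRC, -0.03 ± 0.44 for CSK, 0.52 ± 0.63 for FRK and 0.88 ± 1.06 for FGR (edgeR adjusted p = 1 for each). For YES1, FYN and LYN it was 0.19 ± 0.41, -0.02 ± 0.28 and 0.06 ± 0.34. The SRC interval ran from -1.07 to 0.87 and FRK's from -0.84 to 1.88.

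**Figure D3:**
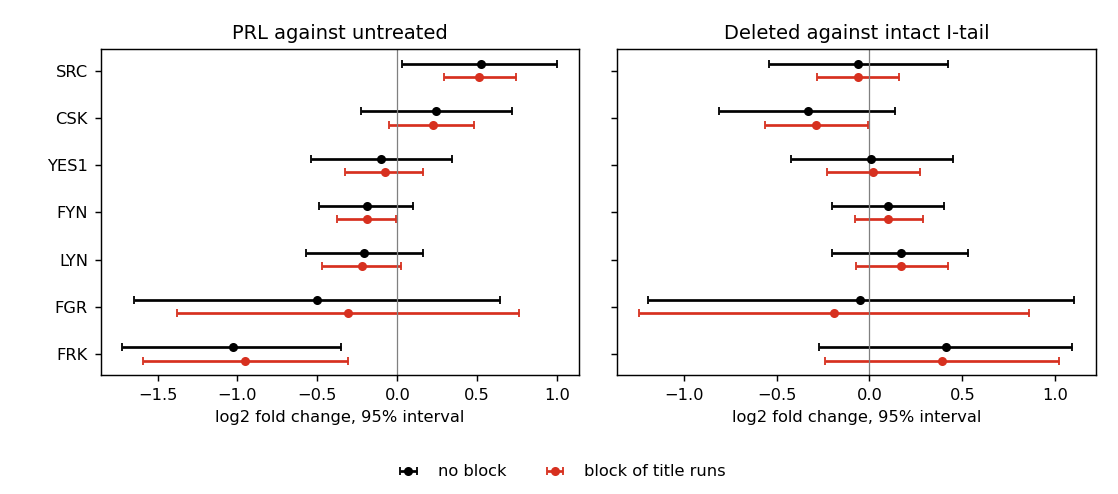
Log2 fold changes of the 7 genes for PRL (left) and for deletion of the I-tail (right), each averaged over the other factor, with 95% intervals, without (black) and with (red) title runs as a block. For PRL the SRC intervals lie above 0 and the FRK intervals below 0 in both fits; for the deletion the unblocked intervals all cross 0.

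Across the libraries SRC and CSK ran together and against FYN and LYN. SRC and CSK had a Pearson r of 0.84 on log2 CPM over the 12 libraries (0.90 after group means were subtracted), while SRC and FYN had -0.83, SRC and LYN -0.83 and FYN and CSK -0.87. FYN and LYN had 0.70, YES1 and FYN 0.61, and SRC and YES1 -0.59. FGR had 0.61 with LYN, -0.44 with SRC, -0.30 with CSK, 0.02 with YES1, 0.11 with FYN and 0.01 with FRK. These values describe only these 12 libraries, and the title runs follow the same split. The labels do not say which libraries were handled or sequenced together. In the first run SRC lay 0.48 below its group means (log2) and CSK 0.43 below, while YES1 lay 0.35 above. After run means were also subtracted, r was 0.68 for SRC and CSK, -0.49 for SRC and FYN, -0.55 for SRC and LYN and -0.68 for FYN and CSK. It was then 0.01 for SRC and YES1, and it turned to -0.23 for FYN and LYN and -0.44 for YES1 and FYN. FGR, on 2 to 61 counts per library, then had 0.93 with LYN, -0.81 with SRC, -0.61 with FRK and -0.43 with CSK. With YES1 and FYN it had -0.11 and 0.03.

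Base composition moved along with the split of SRC and CSK from YES1, FYN and LYN. The longest SRC and CSK transcripts have 59.3% and 63.6% GC, those of YES1, FRK, LYN and FYN 37.7%, 38.9%, 45.7% and 48.4%, and that of FGR 57.5%. FGR, close to SRC in GC content, had r of -0.44 with SRC, -0.30 with CSK and 0.61 with LYN, on 2 to 61 counts per library. The summed epithelial markers also differed between runs, at 2670 to 3170 CPM in the first libraries and 7010 to 12500 CPM in libraries 2 and 3. The parts of GC content and of marker levels in these correlations were not tested. A GC slope was taken for each library, the change in log2 level per 10 points of transcript GC against the mean of all libraries. It was -0.32 to -0.22 in the first run, 0.01 to 0.43 in the second and -0.06 to 0.19 in the third. In intact cells the slope was higher with PRL than without in each run (-0.22 against -0.32, 0.43 against 0.25 and 0.19 against 0.06), and in deleted cells too (-0.26 against -0.27, 0.07 against 0.01 and 0.12 against -0.06). With an offset for GC content and transcript length, chosen after seeing the data, the averaged PRL effect on SRC was 0.38 ± 0.13 (edgeR adjusted p = 0.582). That offset together with the block gave 0.39 ± 0.08 (edgeR adjusted p = 0.0159, with 292 genes or 1.65% called). CSK then had 0.06 ± 0.07 for PRL, FYN -0.13 ± 0.07 (edgeR adjusted p = 0.509) and FRK -0.85 ± 0.32 (edgeR adjusted p = 0.276). LYN had -0.14 ± 0.10, YES1 0.02 ± 0.11 and FGR -0.38 ± 0.51 in that fit.

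**Figure D4:**
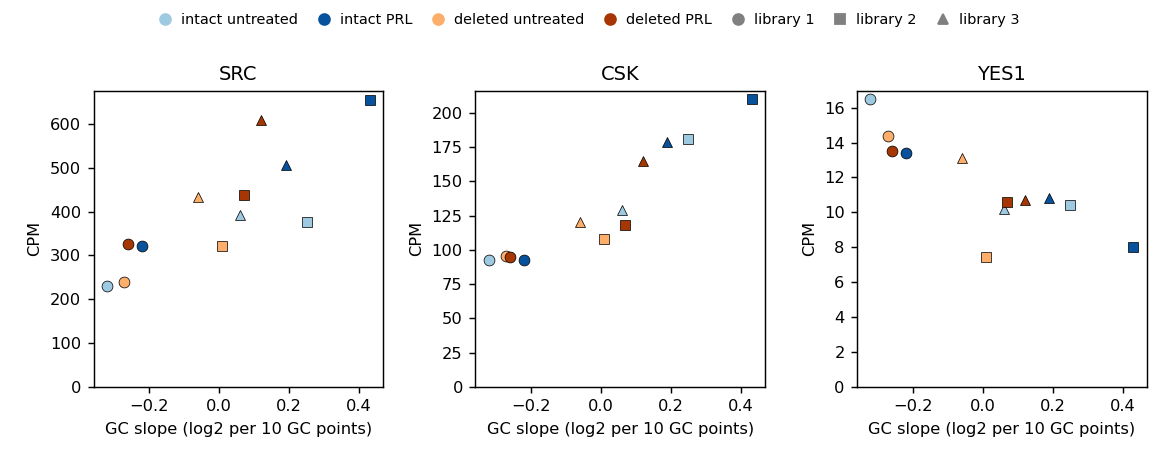
CPM of SRC, CSK and YES1 against the GC slope of the library (log2 change per 10 points of GC); colour gives the group and shape the library number. CSK is lowest and YES1 is highest at the negative slopes of the first libraries, where SRC is lowest within each group. CSK is highest at the slope of 0.43.

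The genes whose levels ran most closely with each kinase were taken from 9226 genes of at least 5 CPM, by Pearson r of log2 CPM over the 12 libraries. For SRC they were CARD10 (r = 0.99), SRF (0.985) and PLAU (0.98). For CSK they were BTBD2 (0.999), MLST8 (0.998) and TRIM28 (0.997), and for YES1 VPS4B (0.954), UBXN4 (0.953) and CBX3 (0.932). FYN ran with CPEB2 (0.954), KCTD9 (0.949) and SNHG1 (0.949), and LYN with PSMD5 (0.964), TNPO3 (0.958) and COL5A2 (0.945). FRK and FGR, under 1 CPM on average, were not used for this. Differences between title runs were not subtracted from these r values, so they include the run, GC and marker shifts described above.

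Around the kinases, neither their regulators nor their substrates had a called member for PRL without the block. The 22 tested regulators included the membrane anchor of CSK, tyrosine phosphatases, CBL ubiquitin ligases and HSP90 chaperones. For the averaged PRL effect 0 of them were called (0.119% of all genes were) and 2 had an unadjusted p under 0.05 (3.81% of all genes did). Of the 22, 10 lay above 0, and the median was -0.02, equal to that of all genes. UBASH3B, a CBL-binding tyrosine phosphatase, had 0.58 ± 0.20 (edgeR adjusted p = 0.94). PAG1, the membrane adaptor that recruits CSK, had -0.63 ± 0.28 (adjusted p = 0.98 by edgeR) at 1.36 CPM on average, and CBLB, a ubiquitin ligase, -0.41 ± 0.21. For the averaged deletion 0 of 22 were called (0.00566% of all genes were), with a median of 0.06 against 0.03 over all genes. NDRG1 had 0.48 ± 0.17, SRCIN1, an adaptor that promotes SRC inhibition by CSK, -0.57 ± 0.23 and LIME1, a CSK-binding adaptor, -0.32 ± 0.18, all with an edgeR adjusted p of 0.991.

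Of 32 substrates and adaptors 0 were called for the averaged PRL effect (0.119% of all genes were), 3 had an unadjusted p under 0.05 (3.81% of all genes did), 15 lay above 0 and the median was -0.02. SH3PXD2B, the podosome and invadopodium scaffold TKS4, had 388 to 616 CPM in untreated intact and 789 to 909 in treated intact cells. It had 376 to 560 CPM in untreated and 778 to 861 in treated deleted cells. Treated and untreated libraries of SH3PXD2B did not overlap in either receptor pair, as for 5.49% of all genes in intact and 8.26% in deleted cells, and the estimate was 0.82 ± 0.15 (edgeR adjusted p = 0.0658). NEDD9, a CAS family scaffold of focal adhesions, had 2.68 to 7.88 CPM untreated and 10.2 to 18.5 with PRL in intact cells. In deleted cells NEDD9 had 5.05 to 11.5 and 15.8 to 19.2 CPM, and its estimate was 1.25 ± 0.26 (edgeR adjusted p = 0.17). BCAR3, a binding partner of the CAS scaffolds, had 0.42 ± 0.13 (edgeR adjusted p = 0.639).

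With title runs as a block SH3PXD2B (0.84 ± 0.09, edgeR adjusted p = 0.00018) and NEDD9 (1.28 ± 0.23, edgeR adjusted p = 0.00882) passed the threshold, as did 1.12% of all genes. SH3PXD2B was called in 12 of 12 blocked fits that left out 1 library. NEDD9 was called in 11, the exception being the fit without the first untreated intact library (edgeR adjusted p = 0.0501). For the averaged deletion 0 of the 32 were called (0.00566% of all genes were), with a median of 0.11 against 0.03 over all genes. ANXA2 (0.32 ± 0.12), GAB1 (0.53 ± 0.22) and TNS3 (0.27 ± 0.14) had the smallest p. Among 18 genes of prolactin receptor signalling 2 were called for the averaged PRL effect (0.119% of all genes were). These were CISH and SOCS2, both STAT5-driven inhibitors, which rose, and none was called lower. SOCS2 rose by 1.78 ± 0.20 (edgeR adjusted p = 0.00213), and PAK1, a kinase downstream of RAC, had -0.13 ± 0.12. For the deletion 0 of these 18 were called (0.00566% of all genes were), STAT5A (-0.25 ± 0.14), SOCS2 (0.26 ± 0.19) and TEC (-0.45 ± 0.35) having the smallest p.

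Of the family relatives outside the 7, SRMS (-0.10 ± 0.21), MATK (0.08 ± 0.33) and PTK6 (0.03 ± 0.14) had PRL estimates within their errors. For the deletion they had -0.25 ± 0.21, -0.57 ± 0.33 and -0.12 ± 0.14 in that order. The 10 epithelial markers had a median of 0.15 for PRL and 0.43 for the deletion, where 8 lay above 0 and the lowest was -0.32. Without the block 0 were called, against 0.119% of all genes for PRL and 0.00566% for the deletion. KRT8 (0.42 ± 0.22) had the smallest p for PRL and CDH1 (0.89 ± 0.45) for the deletion. With the block KRT14 was called for PRL (0.38 ± 0.08, edgeR adjusted p = 0.0239; lost in 6 of 12 fits that left out 1 library). CDH1 (0.84 ± 0.12, edgeR adjusted p = 0.0152) and KRT14 (0.50 ± 0.08, edgeR adjusted p = 0.0271) were called for the deletion with the block, as were 0.0622% of all genes. For the deletion, fits that left out 1 library were not run with the block. Untreated, KRT8 had a mean of 1050 CPM in deleted and 1240 in intact cells, and KRT18 270 and 328. With PRL the means were 1390 and 1680 CPM for KRT8 and 357 and 461 for KRT18. Of the tested leukocyte, fibroblast and endothelial markers 0 were called for either effect, with or without the block. Of all genes 0.119% were called for PRL and 0.00566% for the deletion, and with the block 1.12% and 0.0622%. The part of marker levels in the SRC and FRK estimates was not tested.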

How the data were processed

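RNA of 12 MCF10AT libraries was used, grouped by the genotype and treatment labels. Whole-number counts for each Ensembl gene were deposited; STAR 2.7.9a, featureCounts, Subread, FastQC and GRCh38 are named per the submitters' processing notes, while no source used here gives the annotation release or strand setting. Of 62703 entries, 1 without values was left out. After filterByExpr and TMM scaling, edgeR 4.0.16 (R 4.3.3) fitted a mean for each group, with robust dispersions and 8 residual degrees of freedom. The standard error of a fold change was taken from its F statistic. CPM were scaled by TMM; correlations used log2 CPM with a prior count of 2. Lengths, GC content (96.45% of tested genes) and coordinates came from GENCODE 29. The method was checked on simulated counts that held no title-run or GC effects, so that check does not bear on calls made only with the block.

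The members, lists and tests were chosen with earlier results of these data known. Named are the 7 genes, CISH, PRLR and the 3 genes most alike each kinase of at least 1 CPM. Each list other than the markers gives the 3 genes with the smallest p for each averaged effect. Of the epithelial markers only the gene with the smallest p for each effect has an unblocked estimate, and the other marker lists give none. Genes called only with the block, the markers given with levels and the overlapping genes were named after their values were seen. Library numbers follow the order of titles within a group, so same-numbered libraries form a title run; deviations from group means correlated between same-run libraries at 0.134 to 0.603 in the PRL comparisons and 0.097 to 0.544 in the deletion comparisons. That pairing comes from the data and the title order, not from a label. Alternatives were RLE and library-size scaling, no and a stricter count filter (3 libraries with 10 counts and 1 CPM or more), DESeq2 1.42.0, limma-voom (limma 3.58.1), fits of the compared groups only, title runs as a block and leaving out each library; the GC offset, omission of the first run and leave-outs with the block were added after the data were seen.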

Additional observations from a re-analysis of the deposited data

How the results depend on the processing

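No direction of SRC or FRK for PRL, averaged or per receptor pair, changed under any alternative run, and SRC passed the threshold only with title runs as a replicate block (adjusted p = 0.0232) or with the block and the GC offset (adjusted p = 0.0159). The block changed no other call of the 7 genes. FRK and FGR rest on at most 82 counts a library and did not pass the stricter filter, so they have no value there. With library size alone in place of TMM the median of all genes moved by -0.12 for PRL with intact I-tail, and the SRC estimate for the averaged PRL effect was 0.39. Where calls differ between settings the cause was not tested.

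Called genes, in the order PRL with intact I-tail, PRL with deleted I-tail, PRL averaged, deletion untreated, deletion with PRL and deletion averaged, were 3, 3, 21, 1, 1 and 1. Without a count filter they were 46, 33, 124, 6, 4 and 33, with DESeq2 22, 20, 91, 4, 2 and 10, and with limma-voom 27, 21, 118, 6, 2 and 9. The replicate block of title runs gave 62, 57, 198, 1, 1 and 11, the GC and length offset 11, 15, 63, 1, 1 and 3, and both together 85, 96, 292, 1, 1 and 18. Library size alone gave 1, 1, 25, 0, 0 and 1, and fits of the compared groups only gave 1, 11, 0 and 0 for the 4 single comparisons. Leaving out 1 library gave 1 to 4, 1 to 5, 11 to 27, 0 to 1, 0 to 1 and 1 to 2. Leaving out the whole first run gave 37 for PRL averaged. The interaction had 0 in each of these settings that gives it. With the block, leaving out 1 library gave 105 to 319 genes for PRL averaged, the lowest without the first treated deleted library. CSK as a share of the summed kinases was 30% without length scaling.

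Some directions turned. For SRC the deletion estimate turned with library size alone to 0.08 untreated, 0.03 with PRL and 0.05 averaged, with the GC offset to 0.10, 0.08 and 0.09, and with offset and block to 0.08, 0.07 and 0.08. YES1 turned for the averaged deletion to -0.01 with RLE and with DESeq2 and to -0.10 with the offset, with or without the block, and for the deletion with PRL to -0.03 in both offset fits. For PRL, YES1 turned to 0.02 (averaged) and 0.09 (deleted cells) in both offset fits, to 0.03 in deleted cells with the block, and with limma-voom to 0.01 in intact cells; limma-voom also gave 0.10 for its deletion effect untreated and -0.05 for its interaction. FGR turned to 0.07 (PRL averaged) and 0.64 (PRL, deleted cells) with limma-voom, to 0.08 in deleted cells with the block and to 0.01 (deletion averaged) with library size alone. FRK turned for the deletion untreated to -0.04 with the offset and -0.03 with offset and block, and LYN to -0.02 in both. The interaction turned for CSK to 0.01 with library size alone, and for FYN to 0.03 with library size alone and limma-voom and 0.01 with the offset.

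Leaving out 1 library also turned some, over these ranges. SRC ran from -0.25 to 0.18 (deletion untreated), -0.40 to 0.13 (deletion with PRL), -0.22 to 0.05 (deletion averaged) and -0.37 to 0.17 (interaction), and CSK from -0.01 to 0.40 (PRL, deleted cells) and -0.32 to 0.22 (interaction). YES1 ran from -0.39 to 0.07, -0.25 to 0.18 and -0.22 to 0.03 for PRL in intact cells, in deleted cells and averaged, from -0.27 to 0.18, -0.07 to 0.30 and -0.09 to 0.15 for the deletion untreated, with PRL and averaged, and from -0.07 to 0.39 for the interaction. FYN ran from -0.04 to 0.22 and -0.03 to 0.19 for the deletion untreated and with PRL and -0.14 to 0.11 for the interaction, and LYN from -0.01 to 0.49 (deletion with PRL) and -0.12 to 0.35 (interaction). FRK ran from -0.41 to 0.49 (deletion untreated), and FGR from -0.46 to 0.88 (PRL, deleted cells) and -1.43 to 0.07, -0.12 to 0.99 and -0.52 to 0.25 for the deletion untreated, with PRL and averaged.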
